A study of Mus musculus with 24 samples.

Results

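The comparison described here set the kidneys of alloxan-diabetic mice against those of sham mice and covered every gene measured, with an emphasis on genes outside the usual metabolic pathways. It used 15 of the 24 samples of the series, chosen by their labels: 6 sham and 9 diabetic mice, the latter called DKD (diabetic kidney disease). All were male Crl:CD1(ICR) mice on normal feed. Sham mice received vehicle, and DKD mice received alloxan intravenously at 90 mg/kg, 3 days before they were grouped; kidneys were taken 16 days after grouping. The labels give no age. DKD mice had been picked so that blood glucose and body weight matched those of 9 further diabetic mice given enarodustat. The arrays of those 9 mice entered the fit to estimate the spread. They also counted in the choice of 1 probe per gene and in the filter for signal above background. The series text counts mice, so each array was taken as 1 animal.

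Alloxan is a glucose analogue that enters pancreatic beta cells through a glucose carrier and kills them, so that insulin is lost. Without insulin, more glucose is filtered than the tubules can reclaim, and the urine flow rises; the proximal tubule, which reabsorbs glucose, amino acids and organic acids and also makes glucose itself, carries most of this load. Proximal tubule cells make up most of the kidney cortex, so whole-kidney RNA is dominated by their transcripts. In RNA of whole tissue, fewer cells of a type and less RNA per cell cannot be told apart.

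Levels are log2 signals minus the 75th percentile of the array, so that 0 is the signal below which 75% of the spots lie. Differences are DKD minus sham on the log2 scale, ± SE from limma, and "rose" and "fell" are used for genes with a Benjamini-Hochberg adjusted p below 0.05 over all genes tested. The 75th percentile lay at signals of 219 to 333, and 38402 to 42905 of 59305 spots stood well above background. Arrays correlated at 0.981 to 0.991 within sham and at 0.964 to 0.989 within DKD, and their number limits the precision. Markers of the kidney were present: Slc34a1 of the proximal tubule stood at 7.61 ± 0.12 (SD, n = 6) in sham, Umod of the thick ascending limb at 7.74 ± 0.09, Aqp2 of the collecting duct at 2.50 ± 0.27, Slc12a3 of the distal tubule at 1.89 ± 0.22 and Nphs1 of the podocyte at −1.21 ± 0.29. Slides have 2 rows of arrays: the sham samples all occupied the first, as did 6 of the DKD samples, and the other 3 DKD samples the second.

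Sham 1 and sham 2 stood apart in 1 respect. Of 14 pancreas markers, 9 were higher on sham 1 and sham 2 than on any of the 13 other arrays. Cela2a, a digestive elastase, read 2.93 and 4.59 there against at most −2.88 elsewhere, the carboxypeptidase gene Cpa1 read 0.95 and 1.96 against at most −5.80, and the protease gene Ctrb1 read 1.73 and 2.89 against at most −1.87. The 5 markers that were not higher on both were Cela1, which the kidney expresses, the hormone genes Gcg, Ins1 and Ins2, and Prss1. Among all genes tested, 7 were over 4-fold higher on these arrays than on any other, Amy1, Amy2a5, Cela2a, Cela3b, Clps, Ctrb1 and Zg16. None of these was called between the groups. Their part in the results below was not tested, and the counts over gene lists are given with and without these arrays; counts by signal level, neighbour, transcript type and unnamed probe were made on all 15 arrays alone.

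**Figure D1:**
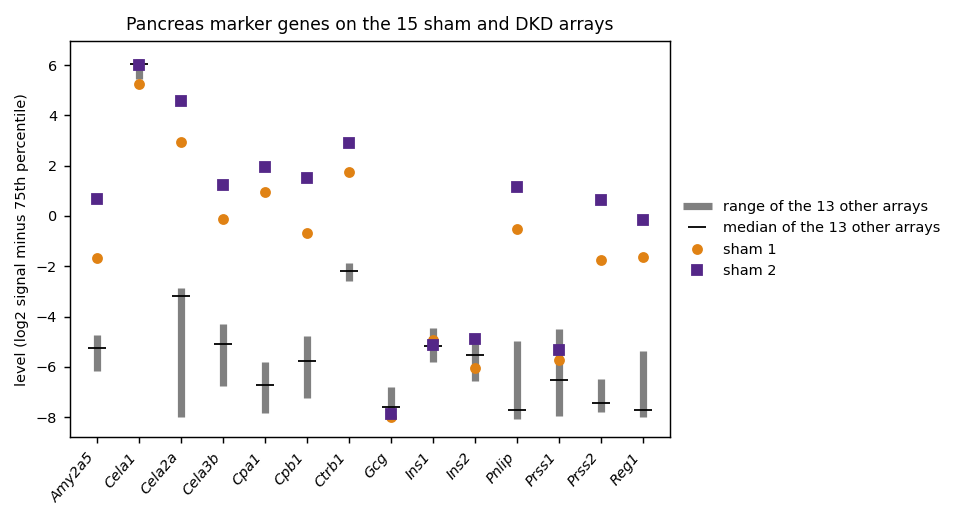
Level (log2 signal minus the array's 75th percentile) of 14 pancreas marker genes on the 15 sham and DKD arrays. Points show sham 1 and sham 2, grey bars the range and black ticks the median of the 13 other arrays; 9 markers lie above the bars on both arrays, and Cela1, Gcg, Ins1, Ins2 and Prss1 do not.

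Diabetes altered a broad set of kidney transcripts by modest amounts. Of 17736 genes, 2058 passed (11.6%), 971 higher in DKD (5.47%) and 1087 lower (6.13%). The median size was 0.59 for risers and 0.55 for fallers, against a median absolute difference of 0.17 over all genes. At least a 2-fold change was found for 172 risers and 199 fallers, and at least a 4-fold change for 18 and 33. For 262 genes all DKD arrays lay above all sham arrays (1.48% of genes), and for 341 they lay below (1.92%), of which 251 and 330 were called. In all but 5 called genes the 3 slides, each holding 2 sham and 3 DKD arrays, gave the same sign. The calls were made from these same arrays, so this agreement is no independent check. Without sham 1 and sham 2, 1074 genes passed, 498 higher and 576 lower, and 1055 of them were among the 2058. These are the only sham arrays of slide 1, so that slide then held DKD arrays without sham. No other pair of sham arrays was left out. Calls lost here and in the lists below therefore cannot be told apart from an effect of fewer sham arrays. Leaving out sham 3 alone gave 1471 calls. Without DKD 5 and DKD 8, whose means for proteasome and ribosomal protein genes lay below the other arrays, 1754 passed, and the excess of fallers was lost, with 888 higher and 866 lower.

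The split between risers and fallers differed with signal level. Genes were divided into 4 bins of equal size by mean level over the 15 arrays, and 157 genes rose and 481 fell in the brightest bin, 284 and 298 in the next, 344 and 184 in the next-to-dimmest and 186 and 124 in the dimmest. The share called climbed from 6.99% in the dimmest bin through 11.9% and 13.1% to 14.4% in the brightest, as the median SE went from 0.26 to 0.12. The brightest bin kept an excess of fallers with quantile normalization (272 higher, 430 lower), with scaling to the array median (146 and 571) and with normexp background correction (171 and 570). The bins were not recounted without DKD 5 and DKD 8, although the excess of fallers over all genes was lost without them. These 2 arrays also had the highest 75th percentiles of the 15, at signals of 291 and 333. The other bins depended on the scaling. The next-to-dimmest bin had 226 risers and 215 fallers with quantile normalization, the dimmest bin turned to 131 and 163 with quantile normalization and to 14 and 34 after normexp, and the second brightest turned to 317 and 270 with quantile normalization.

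**Figure D2:**
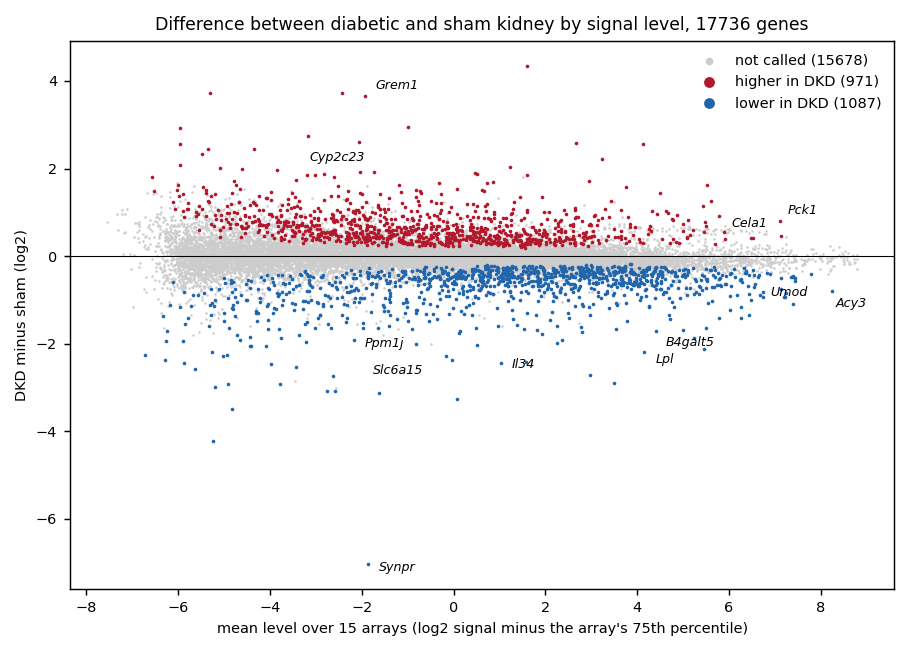
Difference between DKD and sham (log2, vertical) against mean level over the 15 arrays (log2, horizontal) for 17736 genes. Red points are the 971 risers, blue points the 1087 fallers and grey points genes that did not pass; blue outnumbers red at high levels, and red outnumbers blue in the next-to-dimmest bin.

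The most certain risers, ranked by p, included secreted regulators of growth factors. Grem1, a bone morphogenetic protein (BMP) antagonist, had a lowest, median and highest level of −5.05, −3.90 and −3.68 in sham and of −1.67, −0.38 and 0.93 in DKD. Every DKD array lay above every sham array, and the rise was 3.65 ± 0.34 (adjusted p = 2.35e-06). Pappa, a protease that frees insulin-like growth factors from a binding protein, went from −1.81, −1.58 and −1.32 to −0.87, −0.24 and 0.54, a rise of 1.43 ± 0.18 (adjusted p = 3.42e-05). Sulf2, which strips sulphate from heparan sulphate and so changes growth factor binding, went from −0.70, −0.33 and −0.26 to 0.34, 0.75 and 1.15, a rise of 1.19 ± 0.13 (adjusted p = 9.11e-06). The groups of Pappa and Sulf2 did not overlap either.

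Other leading risers work inside the cell or in its membrane. Psrc1, a microtubule-binding protein, spanned −4.09 to −3.66 in sham with a median of −4.0 and −2.52 to −1.36 in DKD with a median of −2.22, a rise of 1.88 ± 0.20 (adjusted p = 9.11e-06). Phlda3, which p53 induces and which restrains Akt signalling, had a median of −0.24 (−0.56 to 0.54) in sham and 1.56 (1.12 to 1.97) in DKD and rose by 1.70 ± 0.19 (adjusted p = 1.02e-05). Epor, the erythropoietin receptor, had medians of −1.01 (−1.22 to −0.76) and −0.08 (−0.34 to 0.29), a rise of 0.94 ± 0.12 (adjusted p = 2.85e-05). Slc2a2, the glucose carrier GLUT2 through which glucose leaves the proximal tubule cell, had medians of 0.20 (0.03 to 0.43) and 1.06 (0.78 to 1.48) and rose by 0.87 ± 0.10 (adjusted p = 2.18e-05). No DKD array overlapped the sham arrays in these 4 genes. Mfsd4a of the major facilitator family (0.98), the nuclear pore gene Aaas (0.69), Tmem54 (1.13) and 1700001L05Rik (0.91) were also among the risers with the smallest p, again with no overlap.

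Among the 12 fallers with the smallest p, Ppm1j, a serine/threonine phosphatase, read −1.48, −0.90 and −0.72 in sham and −3.68, −3.02 and −2.20 in DKD. It fell by 1.91 on the log2 scale (SE 0.20, adjusted p = 9.11e-06). C1qtnf3, a secreted protein related to complement C1q, read 3.67, 3.81 and 4.15 against 1.54, 2.09 and 2.83, a difference of −1.73 ± 0.20 (adjusted p = 1.35e-05), with all its probes between −1.73 and −1.66. Srebf1, which encodes a transcription factor of lipid synthesis, read 2.80, 3.45 and 3.56 against 1.88, 2.09 and 2.65, a difference of −1.14 ± 0.13 (adjusted p = 1.35e-05). In these 3 genes the highest DKD array was below the lowest sham array.

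Hykk, which phosphorylates hydroxylysine from collagen breakdown, differed by −0.92 ± 0.10 (adjusted p = 1.02e-05), and Mtmr7, a phosphoinositide phosphatase, by −2.29 ± 0.29 (adjusted p = 3.39e-05). Ace, angiotensin-converting enzyme of the brush border and endothelium, had medians of 2.40 (2.11 to 2.56) in sham and 1.05 (0.27 to 1.59) in DKD, a difference of −1.29 ± 0.17 (adjusted p = 4.16e-05). The centriole gene Cenpj (−1.31), the homeobox gene Uncx (−0.74), the aldehyde dehydrogenase gene Aldh3b2 (−1.20) and Tmem158 (−1.05) fell with no overlap between groups. Rnf145, a ubiquitin ligase, was lower at the probe used (−0.86) and higher at another (0.43), and the mean over its 3 probes was not called (−0.39, adjusted p = 0.139).

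**Figure D3:**
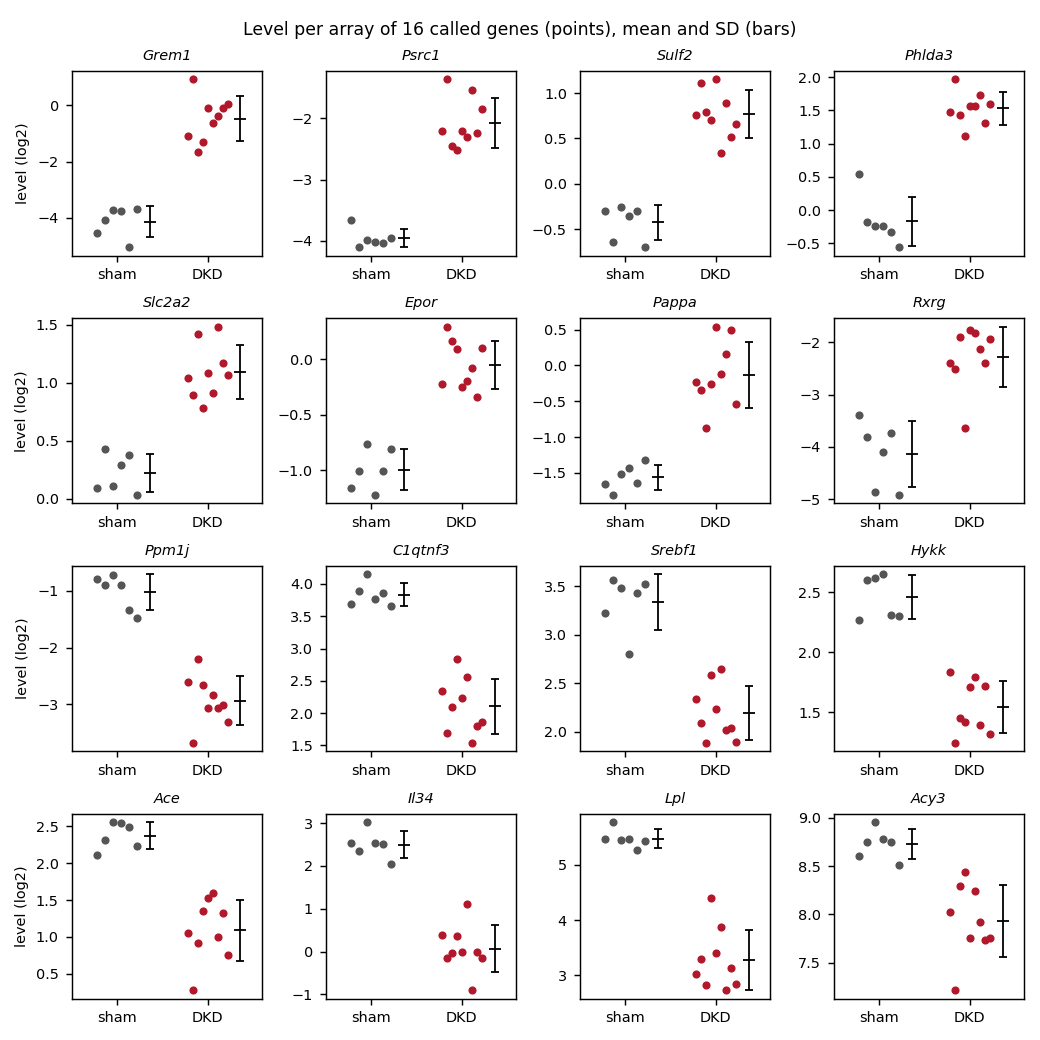
Level (log2) per array of 16 called genes in sham (grey, n = 6) and DKD (red, n = 9); bars give mean and SD. The groups do not overlap except in Rxrg, where 8 of 9 DKD arrays lie above all sham arrays.

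Differences of dim probes were smaller in other processings. These changed the signal column, the background correction and, in the deposited values, the normalization together. Normexp was run with an offset of 50 added to every signal. By arithmetic, a constant added to all signals shrinks the log2 differences of dim probes the most. How much each step contributed was not tested. After normexp correction of the median signals, the differences of Grem1, Psrc1, Tmem54, Ppm1j, Uncx and Aldh3b2 were 1.76, 0.64, 0.67, −1.06, −0.34 and −0.46, all still called by limma. The deposited values gave 0.94 for Pappa and 0.60 for 1700001L05Rik, also called. Across all named genes, normexp moved 40 by over 1.5 times, each at a mean level of −1.10 or below.

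A large difference could vary widely from mouse to mouse. Synpr, a synaptic vesicle protein, spanned 1.59 to 2.92 in sham and −8.05 to 1.29 in DKD, with medians of 2.51 and −4.68 and its probe above background on 5 of 9 DKD arrays. Its SD was 3.16 in DKD against 0.54 in sham, and normexp gave a difference of −3.87.

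Some of the brightest kidney transcripts changed too. Acy3, an aminoacylase of the proximal tubule that deacetylates mercapturic acids, had medians of 8.75 (8.51 to 8.96) in sham and 7.92 (7.21 to 8.44) in DKD, a difference of −0.80 ± 0.15 (adjusted p = 0.000973). Umod, uromodulin, had medians of 7.76 (7.59 to 7.83) and 7.23 (6.93 to 7.57), a difference of −0.49 ± 0.11 (adjusted p = 0.00342), and again the groups did not overlap. Pck1, which gates glucose synthesis, had medians of 6.74 (6.21 to 6.98) and 7.33 (7.16 to 8.21). Cela1, an elastase gene expressed in kidney, rose by 0.54 ± 0.09 (adjusted p = 0.000495) with sham 1 as its lowest array. Selenop, the selenium carrier, fell (−0.56, adjusted p = 0.00862), but was not called without sham 1 and sham 2 (adjusted p = 0.0543).

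Transporters changed in both directions. Of 342 solute carriers 22.8% were called, against 11.6% of all genes, 42 higher and 36 lower, with a median of 0.01 over the family. Without sham 1 and sham 2, 25 rose and 22 fell. Among the fallers were 3 carriers of organic ions. Slc22a6, the basolateral organic anion carrier OAT1, had medians of 7.56 (7.35 to 7.80) in sham and 6.85 (6.28 to 7.20) in DKD, a difference of −0.75 ± 0.12 (adjusted p = 0.000305). Slc22a2, the organic cation carrier OCT2, differed by −0.74 ± 0.11 (adjusted p = 0.000148), and Slc47a1, the luminal exporter MATE1 that works in series with it, by −0.54 ± 0.09 (adjusted p = 0.000547). In each of these 3 genes all DKD arrays lay below all sham arrays. The exporter gene Abcc4 (MRP4) moved the other way, by 0.87 ± 0.18 (adjusted p = 0.00241), and Abca13 (0.71) and Abca8a (0.61, and 0.31 after normexp) also rose. Of 41 ABC transporters 4 rose and 2 fell (3 and 1 without sham 1 and sham 2), a share of 14.6%, near the 11.6% of all genes.

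Carriers of amino acids and related compounds had 9 risers, 4 fallers and a median of 0.10 among 37 tested (6 and 4 without sham 1 and sham 2), and the family mean was above all sham arrays on 3 of 9 DKD arrays. Slc7a8 (0.80) and Slc7a7 (0.40), light chains of basolateral amino acid exchangers, rose, and so did Slc6a8, the creatine carrier (0.49). Slc3a2, the heavy chain with which such light chains pair, read 0.59 ± 0.08 at the probe used (adjusted p = 9.35e-05) and −0.48 at its other probe, so that the mean of both was not called (0.06, adjusted p = 0.866). Slc7a7 was not called among arrays of the first slide row (adjusted p = 0.0596). Slc6a15, a neutral amino acid carrier, spanned 1.17 to 1.67 in sham and −2.64 to 0.47 in DKD, with medians of 1.38 and −0.73, and differed by −2.37 ± 0.42 (adjusted p = 0.000628). Slc7a13 of the late proximal tubule (−0.82) and Slc7a4 (−0.95) fell as well. Slc6a12, the betaine carrier by which kidney cells take up an osmolyte, was singled out after its value was seen. It had medians of −2.27 (−2.72 to −1.21) and −0.28 (−1.67 to 0.10), with 8 of 9 DKD arrays above all sham arrays, and rose by 1.61 ± 0.26 (adjusted p = 0.000265).

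Other carriers followed. The thiamine carrier Slc19a2 (0.55) and the lactate carrier Slc5a12 (0.55) rose, and Slc5a10, a sodium-coupled carrier of mannose and fructose, read 0.69 (adjusted p = 0.053 without sham 1 and sham 2). Of 25 zinc carriers and metallothioneins 3 rose and 4 fell (2 and 1 without sham 1 and sham 2). The zinc importers Slc39a8 (−0.67 ± 0.10, adjusted p = 0.000102) and Slc39a14 (−0.68, adjusted p = 0.0672 without sham 1 and sham 2) were lower, while the metallothioneins Mt1 (0.92) and Mt2 (1.03), which bind zinc, were higher. Among arrays of the first slide row alone, Mt1, Mt2 and Slc39a14 were not called (adjusted p = 0.0773, 0.0827 and 0.0542). Potassium channels gave 5 risers and 1 faller of 68 (2 and 1 without sham 1 and sham 2), a share of 8.82%, below the 11.6% of all genes. Kcnk5, a background channel of the proximal tubule, was the faller (−0.96 ± 0.17, adjusted p = 0.000589), and Kcnj1, the ROMK channel of the thick limb and collecting duct, rose by 0.29 ± 0.06 (adjusted p = 0.00226).

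Most carboxylesterases fell. Of 12 carboxylesterases, which hydrolyse esters of drugs and lipids, 1 rose and 7 fell (1 and 5 without sham 1 and sham 2), with a median of −0.74 against −0.01 over all genes tested. The family mean, taken as each array's average difference from the sham mean, lay at −1.13 to −0.42 on DKD arrays and at −0.27 to 0.25 on sham arrays, without overlap. Ces1f had medians of 6.74 (6.51 to 6.86) in sham and 5.68 (5.47 to 6.38) in DKD and fell (−0.88 ± 0.14, adjusted p = 0.000291), and Ces1e (−0.82) and Ces2b (−0.78) fell beside it. Members of the family resemble each other, so their probes may share signal.

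Cytochromes P450 changed in both directions, with 12 risers and 13 fallers of 73 (34.2%; 8 and 10 without sham 1 and sham 2). Cyp2c23, an epoxygenase of arachidonic acid, had medians of −2.95 (−3.01 to −2.49) and −0.98 (−1.85 to 0.05) and rose by 1.92 ± 0.29 (adjusted p = 0.000166), while Cyp2c69 of the same subfamily changed by −1.35 (adjusted p = 0.000637). Their differences after normexp were 1.07 and −0.56. Cyp4b1 (−0.84 ± 0.12, adjusted p = 0.000113), 1 of the brightest P450 genes of the kidney at 7.75 ± 0.12 in sham, and Cyp2j13 (−1.08) fell, and the fatty acid hydroxylase gene Cyp4a31 rose by 1.62 ± 0.34 (adjusted p = 0.00282). UDP-glucuronosyltransferases, which couple glucuronic acid to drugs and bilirubin, gave 3 risers and 2 fallers of 13 (3 and 0 without sham 1 and sham 2). The risers were Ugt1a10 (0.80), Ugt1a6a (0.87, and 0.39 after normexp) and Ugt1a6b (0.45, not called among first-row arrays, adjusted p = 0.0926), which share exons of 1 locus, so their probes may not be independent.

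Of 50 alcohol, aldehyde and aldo-keto dehydrogenases 5 rose and 11 fell (2 and 7 without sham 1 and sham 2), a share of 32% against 11.6% of all genes. The excess of fallers was mostly lost without DKD 5 and DKD 8, where 8 rose and 9 fell. The list median was then −0.015, against −0.14 with them. Adh1, alcohol dehydrogenase, had medians of 7.07 (6.83 to 7.55) and 5.79 (5.04 to 6.44) and differed by −1.41 ± 0.21 (adjusted p = 0.000172), and Dhrs4, a carbonyl reductase, by −0.71. In the opposite direction, the aldehyde dehydrogenase genes Aldh1a7 (1.87) and Aldh1b1 (1.46, and 0.89 after normexp) rose. Acyl-CoA thioesterases and synthetases had 6 risers and 5 fallers of 27 (3 and 3 without sham 1 and sham 2). The mitochondrial and peroxisomal thioesterase genes Acot2 (1.08) and Acot3 (2.03) rose, and Acot12 (−0.74) and the medium-chain synthetase gene Acsm1 (−0.59; −0.49 and adjusted p = 0.0625 as the mean of 2 probes) were lower. Hydroxysteroid dehydrogenases and steroid reductases had 1 riser and 6 fallers of 22 (1 and 4 without sham 1 and sham 2), and the family mean was below all sham arrays on 8 of 9 DKD arrays. Hsd17b11 had medians of 6.67 (6.36 to 6.97) and 5.22 (4.02 to 5.91) and differed by −1.42 ± 0.25 (adjusted p = 0.000673), Hsd17b12 by −0.50 and Hsd17b14 by 0.65. Hsd11b1, which regenerates active glucocorticoid and was singled out after its value was seen, read −1.43 (adjusted p = 0.00995, and adjusted p = 0.0537 without sham 1 and sham 2).

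Glycosyltransferases, which build the sugar chains of lipids and proteins, were mostly lower where called: 2 rose and 11 fell of 76 (2 and 9 without sham 1 and sham 2), and 7 of 9 DKD arrays had a family mean below all sham arrays. B4galt5, which makes lactosylceramide, the first step towards complex glycolipids, had medians of 5.51 (4.91 to 5.87) and 3.44 (3.28 to 4.43), a difference of −1.71 ± 0.28 (adjusted p = 0.000391). Galnt1, which starts mucin-type sugar chains (−0.77), and the sialyltransferase gene St8sia6 (−0.68) fell, and the risers were Galnt12 (0.60, and 0.35 after normexp) and St3gal2 (0.36).

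Most called genes of protein folding and breakdown were lower in DKD. Of 65 heat shock proteins and DnaJ cochaperones 1 rose and 14 fell (0 and 11 without sham 1 and sham 2), a called share of 23.1%, with a median of −0.11. Hsph1, the Hsp110 chaperone, had medians of 3.75 (3.57 to 4.20) and 2.88 (2.57 to 3.46) and differed by −0.81 ± 0.15 (adjusted p = 0.00109) with no overlap. The DnaJ cochaperone genes Dnaja4 (−0.72) and Dnajc22 (−0.63) fell, as did Dnaja1 (−0.73), singled out after its value was seen. Of 49 proteasome subunits 0 rose and 9 fell (0 and 2 without sham 1 and sham 2), with a median of −0.26 against −0.01 over all genes, and the family mean was below all sham arrays on 5 of 9 DKD arrays. These rest largely on single arrays: the mean was −0.58 on DKD 5 and −0.66 on DKD 8, against −0.21 to 0.10 on the other DKD arrays. Without DKD 5 and DKD 8, 2 subunits fell and the median was −0.16, and leaving out 1 array gave from 2 fallers (without sham 3) to 15 (without DKD 4). Psmd1 (−0.35 ± 0.08, adjusted p = 0.00453) and Psmd2 (−0.36) belong to the regulatory cap; Psmd2 was not called with quantile normalization (−0.25, adjusted p = 0.0734), with the deposited values (−0.24, adjusted p = 0.0853) or among first-row arrays (adjusted p = 0.0672). Few genes of protein synthesis were called: 2 of 83 cytosolic ribosomal proteins (2.41%), 2 of 78 mitochondrial ribosomal proteins, 1 of 56 translation initiation factors and 2 of 33 aminoacyl-tRNA synthetases, all lower (1, 0, 1 and 1 without sham 1 and sham 2). The means of both ribosomal lists were also lowest on DKD 5 and DKD 8, at −0.64 and −0.60 for cytosolic ribosomal proteins and −0.56 and −0.61 for mitochondrial ribosomal proteins. Without those arrays the medians were 0.12 and −0.01, against −0.06 and −0.14 with them. Rpl22l1 was the most certain of the ribosomal group (−0.63). Rab GTPases, switches of vesicle traffic, had 2 risers and 7 fallers of 53 (2 and 4 without sham 1 and sham 2), with Rab32 (−0.88), Rab29 (−0.74) and Rab23 (−0.65, and −0.40 after normexp) lower and Rab6b (0.68) and Rab24 (0.32) higher.

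Several of the lower chaperone genes of the endoplasmic reticulum (ER) share a promoter sequence. The ER stress response element, bound by the transcription factors ATF6 and NF-Y, reads CCAAT, then 9 bases of any kind, then CCACG, and was searched on both strands from 250 bases before to 50 after the start of each gene in RefSeq, build GRCm38.p6; it contains a CCAAT box. The element was found in 23 of 14005 promoters of tested genes (0.164%) and in 35 of 27025 RefSeq promoters (0.13%). By call, it was in 7 of 834 promoters of fallers (0.839%), in 3 of 756 of risers (0.397%) and in 13 of 12415 of genes not called (0.105%). A match is a description of the letters and not a site, and no test was made. The sequences below are those of 5 fallers and 1 riser that hold it, written 5′ to 3′ on the gene's strand for the 250 bases before the start, with the fixed letters of the element in capitals (CGTGG and ATTGG where it lies on the other strand).
Hspa5, chr2:34771840-34772089, plus strand: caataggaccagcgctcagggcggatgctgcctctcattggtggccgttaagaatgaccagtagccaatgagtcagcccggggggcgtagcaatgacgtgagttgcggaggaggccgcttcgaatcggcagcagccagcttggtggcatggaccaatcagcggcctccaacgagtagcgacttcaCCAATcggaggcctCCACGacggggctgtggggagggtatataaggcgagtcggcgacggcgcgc
Hsp90b1, chr10:86705445-86705694, minus strand: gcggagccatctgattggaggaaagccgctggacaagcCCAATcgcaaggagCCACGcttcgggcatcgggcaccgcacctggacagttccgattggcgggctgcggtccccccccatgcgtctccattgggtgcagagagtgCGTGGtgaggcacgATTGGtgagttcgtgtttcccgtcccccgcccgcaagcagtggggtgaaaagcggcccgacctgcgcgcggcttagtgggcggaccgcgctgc
Pdia6, chr12:17266339-17266588, plus strand: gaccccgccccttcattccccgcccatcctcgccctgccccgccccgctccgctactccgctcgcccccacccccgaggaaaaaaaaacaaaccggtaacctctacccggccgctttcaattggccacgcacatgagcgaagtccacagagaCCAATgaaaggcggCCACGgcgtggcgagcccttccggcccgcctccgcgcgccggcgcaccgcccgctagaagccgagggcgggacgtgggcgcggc
Creld2, chr15:88819396-88819645, plus strand: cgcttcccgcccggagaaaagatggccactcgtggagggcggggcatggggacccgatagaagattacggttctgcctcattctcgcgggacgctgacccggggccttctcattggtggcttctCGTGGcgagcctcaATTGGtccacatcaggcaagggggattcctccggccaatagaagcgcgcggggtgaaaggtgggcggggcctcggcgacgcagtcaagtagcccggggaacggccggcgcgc
Derl3, chr10:75893148-75893397, plus strand: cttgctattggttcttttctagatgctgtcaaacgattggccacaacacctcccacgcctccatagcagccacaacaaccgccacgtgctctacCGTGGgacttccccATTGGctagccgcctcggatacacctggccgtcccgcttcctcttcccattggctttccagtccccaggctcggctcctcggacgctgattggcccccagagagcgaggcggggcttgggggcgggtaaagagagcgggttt
Acnat2, chr4:49408152-49408401, minus strand: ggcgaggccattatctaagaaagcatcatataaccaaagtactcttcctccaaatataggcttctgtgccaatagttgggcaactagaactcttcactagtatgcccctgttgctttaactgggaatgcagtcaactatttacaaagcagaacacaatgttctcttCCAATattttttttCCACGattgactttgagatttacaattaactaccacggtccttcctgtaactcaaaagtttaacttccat

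Of the 23 genes with this element, singled out through the search and not by the naming rule, 7 fell, 3 rose and 13 did not pass, among them the ER genes Calr (−0.18), Dnajc3 (−0.24), Syvn1 (−0.22) and Ero1b (−0.26). Hspa5, the main ER chaperone BiP, had medians of 5.84 (5.73 to 5.97) in sham and 5.41 (4.88 to 5.60) in DKD, a difference of −0.53 ± 0.13 (adjusted p = 0.00985). Derl3, which helps to retrieve misfolded proteins from the ER, had medians of −1.34 (−2.24 to −0.63) and −2.77 (−4.09 to −2.44), a difference of −1.50 ± 0.31 (adjusted p = 0.00263; −0.73 after normexp). In both genes all DKD arrays lay below all sham arrays. The ER chaperone genes Creld2 (−0.66), Pdia6 (−0.55), Hsp90b1 (−0.42) and Canx (−0.24) were lower, together with Spats2l (−1.18). Hsp90b1 was not called with quantile normalization (adjusted p = 0.0842) or the deposited values (adjusted p = 0.0826), and Canx failed the threshold when sham 1, 2 or 4, or DKD 2 or 7, was left out (adjusted p up to 0.0818), and with quantile normalization it read −0.17 (adjusted p = 0.338). The risers with the element were Acnat2, a peroxisomal acyltransferase (0.96), Acacb, an acetyl-CoA carboxylase (0.64, with −0.40 at its other probe and 0.12 as their mean, adjusted p = 0.805), and Pan2, a deadenylase (0.45). Pan2 failed it when any 1 of 10 arrays was left out, namely sham 1 to 5 and DKD 1, 2, 5, 7 and 8 (adjusted p up to 0.109), and with quantile normalization or scaling to the array median (adjusted p = 0.0586 and 0.0634). Over all 23 genes the differences ran from −1.50 to 0.96 with a median of −0.24.

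Further elements were counted in the same windows. The full cyclic AMP response element TGACGTCA was in 3.04% of riser promoters, 2.28% of faller promoters and 2.77% of all tested. The antioxidant response core TGACNNNGC was in 14.3%, 14.4% and 14%, the CCAAT box alone in 40.6%, 39.2% and 38.4%, and the forkhead letters GTAAACA in 3.57%, 2.88% and 2.80%. The heat shock element, read here as GAA, TTC and GAA with 2 bases of any kind between each, was added after the chaperone values were seen and was in 0.839% of faller promoters, Hsph1 among them, in 0.132% of riser promoters and in 0.436% of all tested.

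Among transcription factors, nuclear receptors had 4 risers and 4 fallers of 46 (17.4%; 4 and 1 without sham 1 and sham 2). Rxrg, a retinoid X receptor, had medians of −3.96 (−4.92 to −3.39) and −2.13 (−3.64 to −1.77) and rose by 1.86 ± 0.32 (adjusted p = 0.000492; 0.55 after normexp), with DKD 4 inside the sham range. Esr1, the oestrogen receptor alpha, had medians of 1.19 (0.45 to 1.38) and −0.01 (−0.34 to 0.38) and differed by −1.07 ± 0.18 (adjusted p = 0.000363), with its 6 probes between −1.46 and 0.36. Esrrb, an orphan receptor of the thick limb, rose by 0.51 ± 0.10 (adjusted p = 0.0016), and the retinoic acid receptor gene Rarb by 0.67 at 1 probe, with −0.67 at another and a mean that was not called (0.26, adjusted p = 0.393). Nr1i2, the xenobiotic receptor PXR, singled out after its value was seen, rose by 0.97 (0.39 after normexp). Among 361 zinc finger genes with Zfp names 12 rose and 7 fell (5 and 2 without sham 1 and sham 2), a share of 5.26%, below the 11.6% of all genes. Zfp185, an actin-binding LIM protein despite its name, was the most certain (1.02 ± 0.14, adjusted p = 9.35e-05). Kdm8, a JmjC-domain hydroxylase, had medians of −2.10 (−2.84 to −1.50) and −3.53 (−4.39 to −3.07) and differed by −1.40 ± 0.20 (adjusted p = 0.000113; −0.57 after normexp). The splicing genes Sf3b3 (0.50) and Hnrnpdl (0.40) rose. Of 51 histone genes 0 rose and 1 fell (0 without sham 1 and sham 2). Their called share was 1.96%, below the 11.6% of all genes. The list median was −0.24, but −0.14 without DKD 5 and DKD 8. The list mean ran from −0.51 to 0.25 on DKD arrays and from −0.09 to 0.11 on sham arrays.

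Called genes tended to lie beside genes called in the same direction. Along the chromosomes, 19.7% of risers had a riser as the next tested gene on either side, against 10.5% of all genes, and 19.2% of fallers had a faller there, against 11.8%. Neighbours are often relatives with similar probes or overlapping transcripts, and these shares carry no test. There were 24 runs of 3 or more called neighbours in 1 direction, 9 of risers and 15 of fallers; the genes of the runs were singled out after their values were seen. In the Hoxa cluster, whose genes set position along the body axis, the non-coding Halr1 (1.02 ± 0.23, adjusted p = 0.00435), Hoxa2 (0.70), Hoxa3 (0.62 ± 0.15, adjusted p = 0.00658) and Hoxa4 (0.34) were higher. The groups of Hoxa3 did not overlap. Differences after normexp were 0.47 for Halr1, 0.14 for Hoxa2 and 0.07 for Hoxa4, the last pair not called (adjusted p = 0.25 and 0.587). Without sham 1 and sham 2 together, Hoxa2 and Hoxa4 were not called (adjusted p = 0.153 and 0.165), nor was Hoxa4 with quantile normalization (adjusted p = 0.133). Leaving out sham 1, 2 or 5 singly also ended the call of Hoxa2 (adjusted p up to 0.076), and leaving out any of sham 1 to 4 or DKD 5, 6 and 8 that of Hoxa4 (adjusted p up to 0.0902). Further along the cluster Hoxa7 was lower (−0.23, adjusted p = 0.0144). Hoxa7 was not called with quantile normalization (−0.13, adjusted p = 0.283) or without sham 1 and sham 2 (adjusted p = 0.107). The whole Hox family gave 4 risers and 1 faller of 34 (2 and 0 without sham 1 and sham 2), a share of 14.7% against 11.6% of all genes.

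Other runs were of related genes, such as Ces1d, Ces1e, Ces1f and Ces1g, where Ces1g differed by −3.50 (−0.70 after normexp) with its probe above background on 1 of 9 DKD arrays, and Ces1d by −0.71 (not called without sham 2, 3 or 5, adjusted p up to 0.072, or without sham 1 and 2 together, adjusted p = 0.0976). Adh1 fell beside the RIKEN transcripts 4930579F01Rik (−1.80, and −0.66 after normexp) and 0610031O16Rik (−2.01), and Cyp2c67, Cyp2c68 and Cyp2c69 were lower together (−0.83, −1.14 and −1.35; −0.41, −0.46 and −0.56 after normexp). Cyp2c67 was not called without sham 1 and sham 2 (adjusted p = 0.115). Some runs joined unrelated genes. Aldh3b2, Acy3, Tbx10 and Nudt8 were lower (−1.20, −0.80, −0.97 and −0.70), with Nudt8 not called without sham 3 (adjusted p = 0.0511) or without sham 1 and 2 together (adjusted p = 0.0874). Ppm1j lay beside Rhoc (−0.57) and Mov10 (−0.42, adjusted p = 0.0586 without sham 1 and sham 2), and Epor beside Rgl3 (0.40, adjusted p = 0.0562 without them) and Ccdc151 (0.69, and 0.42 with adjusted p = 0.187 as the mean of its probes).

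**Figure D4:**
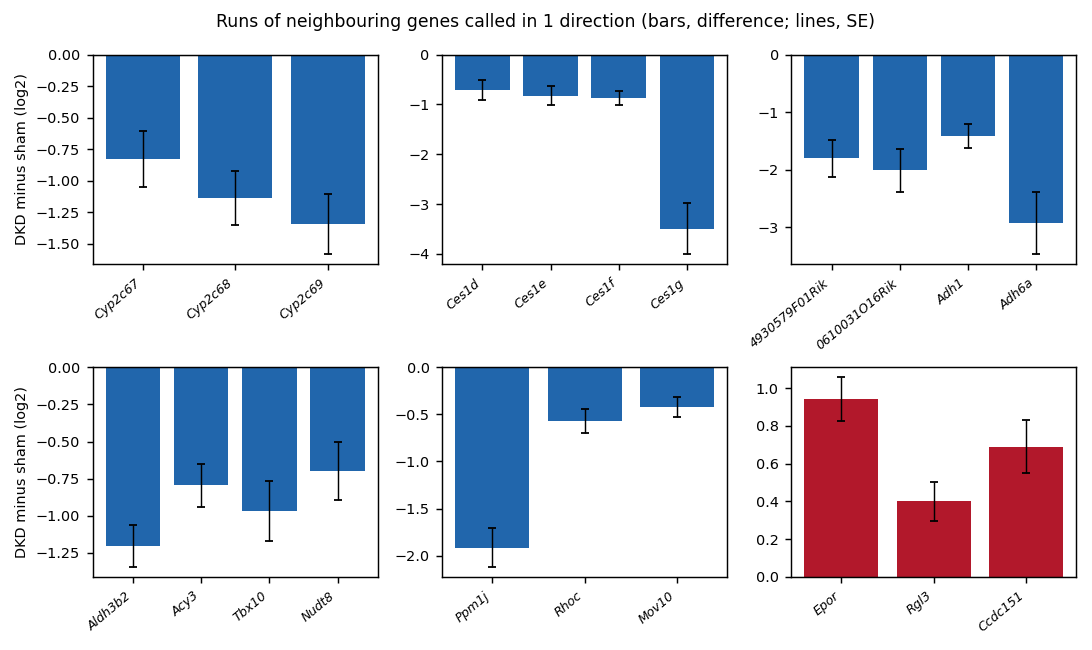
Difference between DKD and sham (log2 bars, with SE lines) for 6 of the 24 runs of neighbouring genes called in 1 direction, in chromosome order. In the Cyp2c run the bars go from −0.83 for Cyp2c67 to −1.35 for Cyp2c69; the Cyp2c and Ces1 runs are of related genes, the Adh run also holds RIKEN transcripts, and the others join unrelated genes.

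Among the immune genes of the lists, all with a RefSeq name, the most certain change was in a macrophage growth factor. Unnamed probes were not part of this ranking. Il34, a cytokine made by tubule cells, had medians of 2.52 (2.04 to 3.02) in sham and −0.02 (−0.91 to 1.12) in DKD and differed by −2.43 ± 0.32 (adjusted p = 4.69e-05), with a second probe at −2.34. Csf1r, the receptor of IL-34 on macrophages, had medians of 3.97 (3.73 to 4.42) and 3.06 (2.78 to 3.52) and differed by −0.89 ± 0.14 (adjusted p = 0.000264), with a second probe at −0.12 and a mean of −0.50, still called. Neither gene's groups overlapped. Csf1r was the 1 gene called of 19 macrophage and dendritic cell markers (5.26%), whose mean ran from −0.37 to 0.23 on sham and from −0.48 to 0.26 on DKD arrays. Interleukins and their receptors had 2 risers and 4 fallers of 55 (0 and 4 without sham 1 and sham 2), a share of 10.9% against 11.6% of all genes. Besides Il34 the fallers were Il18 (−0.68), Il6st, the shared receptor chain gp130 (−0.47), and Il13ra1 (−0.78, named after its value was seen). Of 28 MHC genes 0 were called (4397 genes had an unadjusted p under 0.05 by limma over the whole array), and 1 of 39 chemokines and receptors was.

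Lymphocyte markers gave 0 risers and 6 fallers of 20 (0 and 5 without sham 1 and sham 2), with a family mean of −1.05 to −0.37 on DKD and −0.19 to 0.23 on sham arrays. The B cell receptor gene Cd79b (−1.14), the granzyme gene Gzma (−1.26) and the natural killer receptor gene Klrb1c (−1.68; other probe at −0.44) fell, and after normexp they read −0.48, −0.80 and −0.39. Of 11 neutrophil markers S100a8 (−1.03) and S100a9 (−1.07) fell, with −0.37 and −0.70 after normexp. The list median was −0.47 for lymphocyte and −0.33 for neutrophil markers, but −0.14 and −0.10 after normexp. Among 27 coagulation and fibrinolysis genes 3 rose and 3 fell (2 and 2 without sham 1 and sham 2). F10, coagulation factor X, rose by 1.73 ± 0.31 (adjusted p = 0.000849; 0.46 after normexp) and Plat, tissue plasminogen activator, by 0.53, while Serpinf2, the plasmin inhibitor, had medians of 6.28 (6.09 to 6.37) and 5.10 (4.87 to 5.64), a difference of −1.03 ± 0.14 (adjusted p = 6.88e-05), and Proc, protein C, differed by −0.72.

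Among matrix and adhesion families, 4 of 59 metalloproteases and their inhibitors rose and 5 fell (2 and 2 without sham 1 and sham 2). Their share was 15.3%, against 11.6% of all genes. Of 39 collagens 1 rose and 1 fell, or 5.13% (0 and 0 without sham 1 and sham 2). Of 49 cadherins and protocadherins 1 rose (2.04%), and of 15 fibroblast markers 1 fell (6.67%), with none of either without sham 1 and sham 2. The shares of collagens, cadherins and fibroblast markers were all below the 11.6% of all genes. Of 17 endothelial markers 2 rose (0 without sham 1 and sham 2), a share of 11.8%, near that of all genes.

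Markers of the nephron's segments moved differently. Late proximal tubule (S3) markers had 1 riser and 5 fallers of 12 (0 and 5 without sham 1 and sham 2) with a median of −0.38, and 8 of 9 DKD arrays had a mean below all sham arrays. Aadat, which transaminates kynurenine and aminoadipate, differed by −1.48 ± 0.28 (adjusted p = 0.00134), from medians of 4.54 (4.35 to 5.24) to 3.04 (2.58 to 4.74), with DKD 4 inside the sham range; Slc7a13 and Acy3 were also among the fallers, and the riser was Slc5a10. Early proximal tubule (S1 and S2) markers split into 4 risers and 3 fallers of 14 (3 and 2 without sham 1 and sham 2) with a median of 0.09: Slc2a2, Slc7a8 and Slc5a12 rose and Slc22a6 and Slc47a1 fell. Thick ascending limb markers had 5 risers and 1 faller of 12 (3 and 1 without sham 1 and sham 2) with a median of 0.27, which was 0.15 after normexp and with the deposited values. The sodium-potassium-chloride carrier gene Slc12a1 (0.41) and the prostaglandin receptor gene Ptger3 (0.66) rose there, and Umod was the faller. Calb1, a calcium-binding protein of the distal convoluted tubule, rose by 0.77 ± 0.13 (adjusted p = 0.000345), 1 of 2 risers among 11 markers of that segment (2 also without sham 1 and sham 2). The called share was 18.2% there and 50% in each of the S3, early proximal and thick limb lists, against 11.6% of all genes.

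Principal cell markers had 8 risers of 12 (4 without sham 1 and sham 2) and no faller, with a median of 0.43. Their called share was 66.7%, against 11.6% of all genes. The water channel genes Aqp2 (medians 2.50 and 3.33) and Aqp3 (3.77 and 4.21) and the transcription factor gene Elf5 (0.85, and 0.30 after normexp) rose with no overlap between groups. Of 13 intercalated cell markers 0 were called. Of 14 podocyte markers 1 rose, the cell cycle inhibitor Cdkn1c (0.95), and 1 fell (1 and 0 without sham 1 and sham 2). The podocyte share of 14.3% was near the 11.6% of all genes. Krt18, a keratin of simple epithelia, rose by 0.85 ± 0.16 (adjusted p = 0.00112). Among genes first known from fat, Lpl, lipoprotein lipase, had medians of 5.45 (5.27 to 5.77) and 3.13 (2.73 to 4.40), a difference of −2.19 ± 0.31 (adjusted p = 9.7e-05), with its 3 probes between −2.40 and −2.19. In contrast, Fabp4 (0.70 ± 0.10, adjusted p = 8.37e-05) and Plin4 (0.59, and 0.23 after normexp) rose. With Lpl these were 3 called genes of 10 adipocyte markers (30%). Cldn10, a claudin of the tubule (−0.65), fell, and Fst, follistatin, which binds activins, rose (0.91, and 0.48 after normexp). Of markers of adjacent tissues 0 of 10 adrenal and 0 of 9 skeletal muscle markers were called, 1 of 10 liver markers fell and 1 of 11 urothelial markers rose (0 without sham 1 and sham 2). The liver and urothelial shares, 10% and 9.09%, were also near that of all genes.

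**Figure D5:**
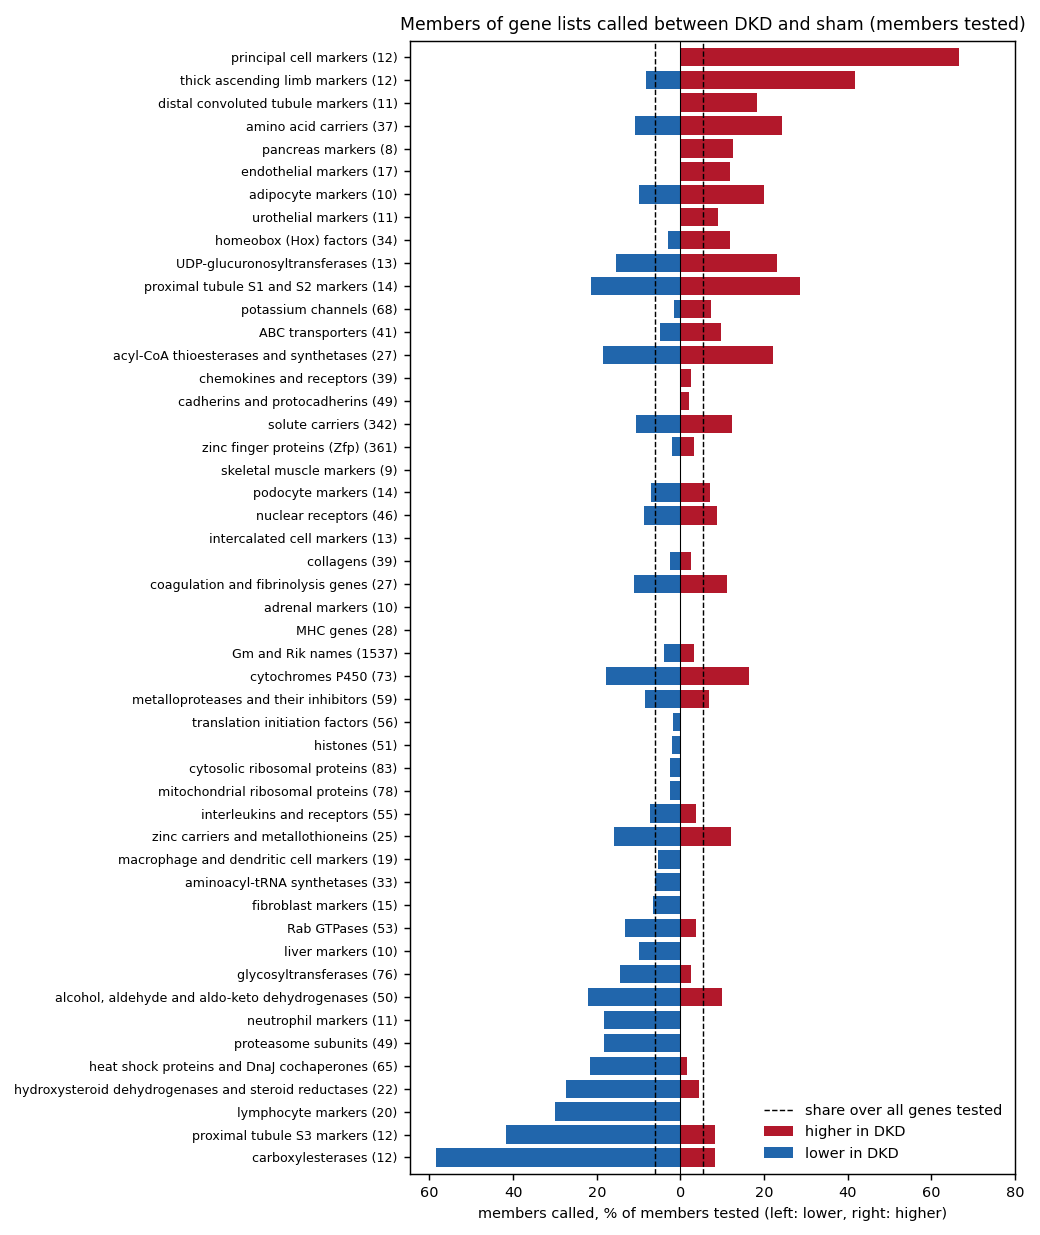
Share of tested members (number in brackets) that rose (red, right) or fell (blue, left) in DKD, for 49 of the 88 lists; dashed lines mark 5.47% and 6.13%, the shares over all genes. Of the lists drawn, principal cell markers stand at the top with 8 risers of 12, and carboxylesterases at the bottom with 7 fallers of 12.

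Genes in none of the 88 lists were called as often (11.7% of 13208) as genes in a list (11.4%), so that 1542 of the 2058 calls lie outside them. Long non-coding RNAs were called less often, 7.20% of 1194 with 40 risers and 46 fallers, against 12% of protein-coding genes, a difference that was not tested. Genes with Gm or Rik names gave 49 risers and 60 fallers of 1537 (27 and 34 without sham 1 and sham 2), a share of 7.09% against 11.6% of all genes. A930001C03Rik (0.99 ± 0.13, adjusted p = 4.47e-05) and 1700007K13Rik (1.44) rose, with 0.49 and 0.68 after normexp, and E130201H02Rik (−1.09), Gm10638 (−1.15) and Gm33050 (−0.94; −0.48 after normexp) fell, each with no overlap between groups. Some such transcripts were above background on every array of 1 group and on none of the other. For the dim group a floor was used, the array's lowest signal well above background, or the probe's own reading where higher. A probe's own detection limit can lie above this floor, so the folds are not bounds. With the floor, 9130409I23Rik was 3.67-fold higher in DKD (adjusted p = 8.37e-05) and Gm36315 1.75-fold higher (adjusted p = 0.00125). In the other direction 4930550L24Rik was 1.84-fold lower (adjusted p = 0.000539). These adjusted p values, from limma without the floor, rest on readings below background in 1 group. After normexp the transcripts read 0.35 (adjusted p = 0.0433), 0.06 (adjusted p = 0.832) and −0.16 (adjusted p = 0.427).

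Probes without a RefSeq name added further changes. Fitted probe by probe, 3066 of 40774 were called (7.52%); of 15047 unnamed probes 689 were (4.58%), 367 higher and 322 lower, against 9.24% of named probes. The smallest p of any probe belonged to an unnamed one, for the transcript ENSMUST00000103740, whose levels were −1.0 ± 0.44 (SD, n = 6) in sham and −3.76 ± 0.45 (SD, n = 9) in DKD, a difference of −2.76 ± 0.20 (adjusted p = 3.38e-08 by limma over all probes). A pair of probes for a long intergenic RNA, designed on mm9 at chr3:146629425-146649125 and chr3:146645022-146646977, both on the forward strand and overlapping, differed by −1.34 ± 0.16 and −1.37 ± 0.16 (adjusted p = 3.48e-05 and 3.67e-05 over all probes). The most certain unnamed riser, NAP092820-001, went from −4.95 ± 0.26 to −3.68 ± 0.26, a difference of 1.27 ± 0.13 (adjusted p = 1.86e-05 over all probes).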

How the data were processed

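Kidney RNA was measured on Agilent one-colour arrays, 1 array per mouse. The deposited scanner files hold processed signal intensity per spot, background-subtracted by Agilent Feature Extraction 12.1.1.1 per the file headers; limma and an earlier Feature Extraction release, 11.5.1.1, are listed in the submitters' processing notes. The deposited value table holds log2 values and served as an alternative. These values matched normexp correction of the median signals, with an offset of 50, followed by quantile normalization (median absolute difference 0.0086).

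Control spots were left out, log2 intensity was taken minus each array's 75th percentile, spots of a probe were averaged, and each gene was represented by 1 probe. This was the probe with the highest mean over all 24 arrays, kept if well above background on at least 6 of them. Probes were named through RefSeq accessions. Genes (17736) were fitted with limma 3.58.1 in R 4.3.3, with group as the single term over all 24 arrays, empirical Bayes and Benjamini-Hochberg adjustment. Planned normexp on mean signals was run on median signals, since the files hold no mean signal. The script was tested on simulated data.

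Members, gene lists and tests were chosen with earlier results of these data known. Named genes are called genes above background on at least 50% of both groups' arrays: the 12 with the smallest p per direction, the 8 brightest, the 10 in no list, up to 3 per list and the 5 largest changes, beside bounded genes and unnamed probes (up to 5 per direction); exceptions are stated. RefSeq promoters are on GRCm38.p6; the array's own coordinates are on mm9 and were not joined to them. Some results are not reported here.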

Additional observations from a re-analysis of the deposited data

Results flagged for a closer look

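In 23 of 424 groups of values checked, for the named genes and the list means, 1 array stood far from the others of its group; chance alone gives about 1 in 20. The number given is that array's gap to its nearest neighbour as a share of the group's range. In DKD these were Aadat (0.531, DKD 4 high), Ces1e (0.504, DKD 3 low), Derl3 (0.533, DKD 3 low), Hsp90b1 (0.550, DKD 2 low), Kdm8 (0.519, DKD 3 low), Pck1 (0.573, DKD 3 high), Plin4 (0.602, DKD 6 low), Rxrg (0.608, DKD 4 low), Slc12a1 (0.496, DKD 5 high), Slc19a2 (0.540, DKD 8 low) and Tbx10 (0.587, DKD 2 low). In sham they were Acsm1 (0.667, sham 6 low), Cyp2c23 (0.826, sham 3 high), Gm10638 (0.630, sham 5 low), Halr1 (0.733, sham 5 high), Hoxa3 (0.673, sham 5 low), Phlda3 (0.649, sham 1 high) and Psrc1 (0.666, sham 1 high). Among list means, potassium channels (0.659, sham 2 low) and MHC genes (0.656, sham 5 low) stood out in sham, and Hox factors (0.502, DKD 5 high), Gm and Rik genes (0.517, DKD 9 high) and endothelial markers (0.660, DKD 6 high) in DKD. DKD 4 read −3.64 for Rxrg and 4.74 for Aadat, both inside the range of the sham arrays.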

How the results depend on the processing

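The count of genes called, 2058, was 1471 without sham 3 and 2260 without DKD 4, the lowest and highest with 1 array left out. It was 1074 without sham 1 and sham 2 together. Fitted on the sham and DKD arrays only, with the same probes, it was 1771, 828 higher and 943 lower, with 1675 shared. With every probe as a feature, 3066 of 40774 probes were called, 7.52% against 11.6% of genes. That is a count of probes, not of genes. Single slides, with 2 sham and 3 DKD arrays each, gave 15, 0 and 9 calls by limma, with 2202, 1656 and 1616 genes at an unadjusted p under 0.05. Replicate numbers did not pair the arrays (correlations of same-numbered arrays from −0.358 to 0.280), and the fit with the replicate block called 1461 genes, 1325 of them shared. Slides did leave a mark. Deviations from the group mean correlated between sham and DKD arrays at a median of 0.246 within a slide and −0.095 across slides. With slide as a fixed block 2447 genes were called (2047 shared), and as a random block 2315 (2058 shared). Risers made up 47.2% of calls, but 40.1% of 1781 after normexp, planned on mean signals and run on median signals once the files were seen. Leaving out sham 1 and 2, or DKD 5 and 8, was chosen after seeing the data. Of 163 named genes, 135 kept their call in every setting that gave them a value, other than single slides; 156 had a value with the deposited values and with the filter on all 24 arrays, and 159 with the 50% filter. List medians moved beyond the spread between arrays as follows; the cause was not tested. With quantile normalization the endothelial median was 0.11. After normexp it was 0.013 for potassium channels, 0.15 for the thick limb, −0.10 for neutrophils, −0.14 for lymphocytes and 0.12 for urothelium. The deposited values gave −0.015 for alcohol and aldehyde dehydrogenases, 0.15 for the thick limb, −0.056 for neutrophils, −0.23 for lymphocytes and 0.089 for urothelium. Both stricter detection filters gave 0.47 for adipocytes. The replicate block gave −0.0063 for amino acid carriers (8 risers, 5 fallers) and −0.34 for hydroxysteroid dehydrogenases. Slide 1 alone gave 0.050 for solute carriers, 0.042 for nuclear receptors, −0.12 for early proximal tubule, −3.20 for pancreas and 0.84 for urothelium. Slide 2 gave −0.51 for carboxylesterases, −0.16 for interleukins, −0.21 for intercalated cells, 0.46 for fibroblasts, 0.047 for metalloproteases and −0.80 for lymphocytes. Slide 3 gave −0.30 for hydroxysteroid dehydrogenases, 0.10 for interleukins, 0.18 for MHC genes and 0.46 for pancreas. Without sham 1 and sham 2, nuclear receptors were at −0.061 and pancreas at 0.15, and without DKD 5 and DKD 8 podocyte markers were at 0.19 and endothelial markers at 0.12.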
